A study of Mus musculus with 22 samples.

Results

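MHC class II molecules display peptides from ingested proteins on the surface of antigen-presenting cells. The genes described here are the 7 of that pathway named H2-Aa, H2-Ab1, H2-Eb1, H2-DMa, H2-DMb1, Cd74 and Ciita. They were listed by name, and each was read from the probe annotated to that gene alone with the highest mean over all 22 samples. Of the 7 listed genes, 6 had such a probe, out of 12393 genes on the array that did. H2-DMb1 had none, because its probes also match its neighbour H2-DMb2, and the values of those shared probes are given separately.

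Male C57BL/6 mice of 19 to 24 g body weight gave loose subcutaneous connective tissue of the trunk, which was either stretched or kept short before its RNA was measured on arrays. The 4 groups were tissue stretched ex vivo, tissue shortened ex vivo, tissue stretched in vivo and tissue shortened in vivo. Each animal gave 1 stretched and 1 shortened piece, assigned at random, from 4 animals ex vivo and 7 in vivo, so the replicates are animals and samples of 1 number within a setting are a pair. All groups are unmodified C57BL/6 tissue of mixed cell types, with no untouched tissue among the 22 samples, and the labels used here do not say how hard or how long tissue was stretched.

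A class II molecule pairs an alpha chain with a beta chain, which in this strain means the products of H2-Aa and H2-Ab1. New pairs travel with the invariant chain, the product of Cd74, which fills the peptide groove until it is cut away in endosomes. The DM heterodimer, encoded by H2-DMa and a DMb gene, then exchanges the remaining fragment for a peptide. Ciita is the coactivator without which most class II transcription stops. It binds no DNA itself but rides on the factors RFX, CREB and NF-Y, which sit on adjoining boxes, called X and Y, in class II promoters. Dendritic cells, macrophages and B cells make class II constitutively, and interferon gamma induces Ciita in many other cells, fibroblasts included.

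The promoter stretches of 3 of the listed genes are shown because they hold letters of these boxes and so show what H2-Aa, H2-Eb1 and H2-DMb1 share at the DNA level. The sequences are from RefSeq on GRCm38.p6, read 5′ to 3′ on the strand of the gene. Capitals mark a letter core of the X box, GNAAC, and the letters of the Y box, TGATTGG.
H2-Aa, chr17:34287861-34287910, minus strand: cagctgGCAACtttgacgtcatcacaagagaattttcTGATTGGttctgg
H2-Eb1, chr17:34305770-34305818, plus strand: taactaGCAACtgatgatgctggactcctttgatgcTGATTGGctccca
H2-DMb1, chr17:34153091-34153140, plus strand: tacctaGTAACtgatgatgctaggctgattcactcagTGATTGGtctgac
The cores were separated by 26 bases in H2-Aa, 25 in H2-Eb1 and 26 in H2-DMb1. The Y box letters lay 43 bases before the annotated start in H2-Aa, 54 bases before it in H2-Eb1 and 56 bases before it in H2-DMb1. In windows of 250 bases before to 50 bases after a start, searched on both strands, 7.82% of 32851 promoters held TGATTGG. The combination of GNAAC 20 to 45 bases before TGATTGG was in 0.712%. Both letter strings and the spacing were chosen after these sequences had been read, so the match is a description and not a site. Of the other class II genes with an entry, H2-Eb2, H2-Oa and H2-Ob held both strings and H2-DMb2 held the Y box letters alone. The windows of H2-DMa, of which there are 2, held neither, which says only that these letters are not there. H2-Ab1, Cd74, Ciita and H2-Ea had no entry.

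On GRCm38.p6, H2-Aa lies at chr17:34282744-34287823, H2-Ab1 at chr17:34263227-34269418, H2-Eb1 at chr17:34305867-34316674, H2-DMa at chr17:34119693-34139101 and H2-DMb1 at chr17:34153191-34160229. Cd74 lies at chr18:60803849-60812652 and Ciita at chr16:10480014-10531064. Positions of the probes within these genes were not analysed here.

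Values were log2 signals, so a difference of 1 is a 2-fold change, and they ranged from 1.89 to 14.4. Sample medians were 6.85 to 6.90 ex vivo and 7.28 to 7.41 in vivo. Values within a setting had nearly the same distribution, so the settings look to have been normalized separately, and setting and processing batch cannot be told apart. Differences between settings are therefore given after subtracting each sample's own median, while levels are the deposited signals. The Gapdh control probes at the 3′ and 5′ ends of the transcript, whose difference grows as RNA degrades, differed by 0.0497 to 0.912 ex vivo, by 0.111 to 0.272 in vivo in animals 1 to 3 and by 0.866 to 3.61 in animals 4 to 7. The mean signal of 10 skeletal muscle markers spread widely, at 8.13 ± 3.50 in ex vivo stretched and 5.52 ± 0.50 in ex vivo shortened pieces (SD, n = 4 each), against 9.99 ± 3.15 in in vivo stretched and 7.85 ± 3.08 in in vivo shortened pieces (SD, n = 7 each). As for the tissue itself, the fibroblast genes Col1a1 and Dcn were bright in all 4 groups. Dcn was at 13.58 ± 0.06 in ex vivo stretched and 13.60 ± 0.07 in ex vivo shortened tissue, and at 14.03 ± 0.07 in in vivo stretched and 14.07 ± 0.05 in in vivo shortened tissue. How precise each value is depends on these few arrays per group.

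The first comparison set tissue held ex vivo against tissue held in vivo. All 6 class II genes with a probe of their own were lower ex vivo, in shortened and in stretched tissue alike. The fall was 3.38-fold to 12.1-fold in shortened tissue and 3.66-fold to 14.2-fold in stretched tissue. By the brightest probe of each gene it was smallest for Cd74 and largest for H2-DMa in both, although a second probe of Ciita, given further on, fell by less than Cd74. The order is one of probes, as further probes of a gene could differ in size from its brightest.

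H2-Aa, the alpha chain, had signals of 10.37, 10.57, 10.71 and 10.15 in ex vivo stretched tissue of animals 1 to 4 and of 10.71, 10.31, 11.21 and 11.03 in ex vivo shortened tissue of the same animals. The in vivo samples ran from 12.99 through a median of 13.10 to 13.41 when stretched and from 13.02 through 13.19 to 13.29 when shortened. The highest ex vivo sample lay below the lowest in vivo sample, so the settings did not overlap. H2-Aa was lower ex vivo by 3.74-fold in shortened tissue (log2 difference -1.90 ± 0.13 SE, n = 4 ex vivo and 7 in vivo, limma, adjusted p = 7.46e-08). In stretched tissue, from the other pieces of the same animals, it was lower by 4.75-fold (-2.25 ± 0.11, limma, adjusted p = 4.31e-09).

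H2-Ab1, the beta chain that pairs with it, had signals of 9.81, 10.06, 10.29 and 9.45 in ex vivo stretched tissue and 10.09, 9.85, 10.78 and 10.44 in ex vivo shortened tissue. In vivo its signals ran from 12.69 through 12.91 to 12.97 when stretched and from 12.80 through 12.86 to 13.13 when shortened, again with no overlap between settings. The difference ex vivo was -2.15 ± 0.14 in shortened tissue (limma, adjusted p = 3.47e-08) and -2.51 ± 0.13 in stretched tissue (limma, adjusted p = 7.51e-09). H2-Eb1 encodes the beta chain of the second class II isotype, which needs an alpha chain from H2-Ea. Its signals were 9.46, 9.77, 9.96 and 9.30 in ex vivo stretched tissue and 9.87, 9.41, 10.42 and 10.28 in ex vivo shortened tissue. The in vivo signals of H2-Eb1 ran from 12.57 through 12.73 to 12.84 when stretched and from 12.56 through 12.76 to 13.04 when shortened, and no ex vivo sample reached them. H2-Eb1 was lower ex vivo by 2.32 ± 0.16 in shortened tissue (limma, adjusted p = 5.23e-08) and by 2.64 ± 0.11 in stretched tissue (limma, adjusted p = 1.52e-09).

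Cd74, whose product escorts the chains, was the member with the widest spread among ex vivo stretched samples. They read 10.92, 11.62, 11.78 and 10.50, and the ex vivo shortened samples read 11.23, 11.08, 11.76 and 11.35. In vivo, Cd74 ran from 13.42 through 13.53 to 13.65 when stretched and from 13.42 through 13.56 to 13.79 when shortened. The settings did not overlap, and the differences were -1.76 ± 0.11 in shortened tissue (limma, adjusted p = 2.35e-08) and -1.87 ± 0.19 in stretched tissue (limma, adjusted p = 3.06e-06).

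H2-DMa encodes the alpha chain of the peptide exchanger DM. It read 6.33, 6.38, 6.43 and 5.67 in ex vivo stretched tissue and 6.70, 6.20, 6.75 and 6.56 in ex vivo shortened tissue. Its in vivo signals ran from 10.26 through 10.51 to 10.76 when stretched and from 10.34 through 10.65 to 10.93 when shortened. No other member had so wide a gap between the highest ex vivo and the lowest in vivo sample. H2-DMa differed by -3.60 ± 0.12 in shortened tissue (limma, adjusted p = 1.12e-10), and 45 of the 12393 genes had a difference as low or lower. In stretched tissue it differed by -3.83 ± 0.15 (limma, adjusted p = 7.00e-10), with 38 genes as low or lower. The 2 probes shared by H2-DMb1 and H2-DMb2, the beta chain genes of DM, read -3.38 and -2.95 ex vivo against in vivo in shortened tissue and -3.35 and -3.11 in stretched tissue. The probe of H2-DMb2 alone read -1.19 ± 0.12 in stretched tissue (limma, adjusted p = 2.97e-06), a smaller difference than that of either shared probe, and it was also called lower in shortened tissue (limma, adjusted p = 3.92e-05).

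Ciita, the coactivator, was at 3.87, 4.19, 4.11 and 3.97 in ex vivo stretched tissue and at 4.11, 3.87, 4.17 and 4.02 in ex vivo shortened tissue. In vivo it ran from 5.77 through 6.36 to 7.08 when stretched and from 5.93 through 6.21 to 7.23 when shortened. These groups did not overlap either, although in vivo samples spread over more than 1 log2 unit. The ex vivo signals of Ciita were dim, and whether a floor of the array limits its differences was not tested. Ciita was lower ex vivo by 1.94 ± 0.22 in shortened tissue (limma, adjusted p = 6.44e-06) and by 1.94 ± 0.20 in stretched tissue (limma, adjusted p = 3.47e-06).

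**Figure D1:**
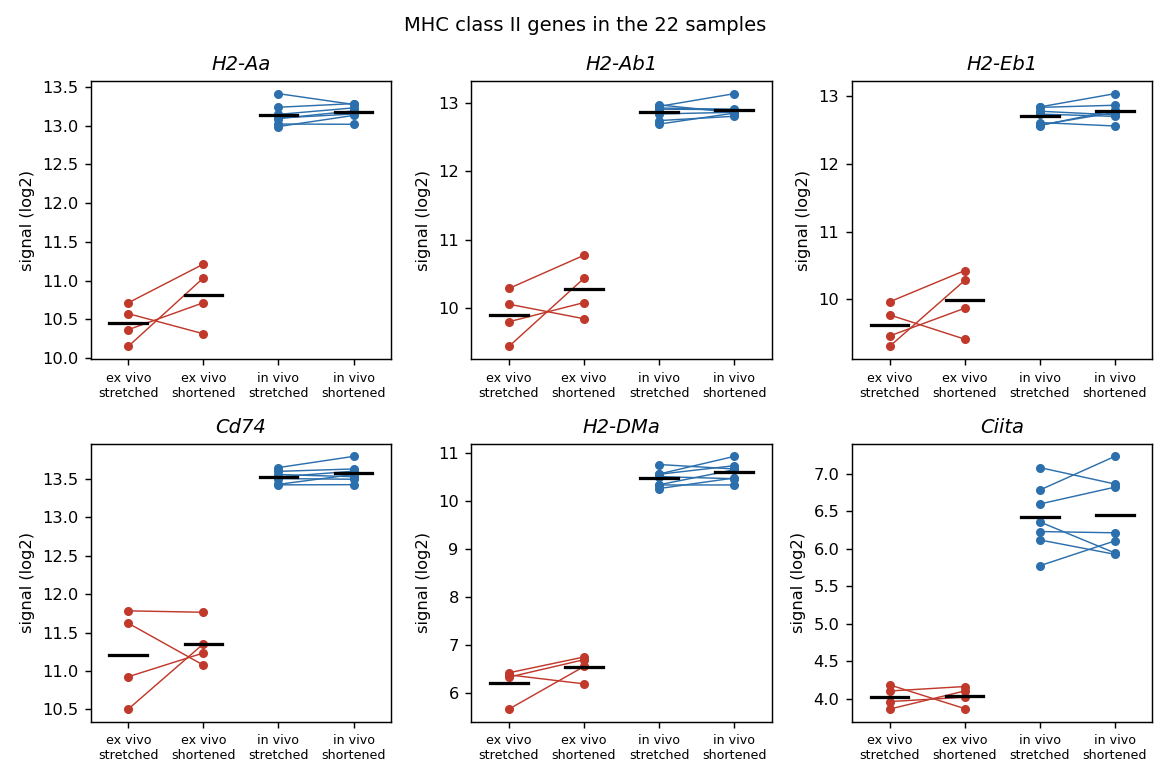
Deposited log2 signal of the 6 class II genes in every sample, 1 panel a gene, with thin lines joining the 2 pieces of an animal and black bars at group means; the vertical axes do not start at 0. In each panel the 8 ex vivo samples lie below all 14 in vivo samples, while stretched and shortened groups of a setting overlap.

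A call here means an adjusted p under 0.05 over the 22626 probes tested. All 6 members were called lower in shortened tissue, where 29.6% of probes were called lower, and all 6 in stretched tissue, where 28.4% were. Changes of at least 4-fold with a call were rarer. They held for 3 of 6 members in shortened tissue, against 2.47% of probes, and for 4 of 6 in stretched tissue, against 2.51% of probes. On centred values all 6 were lower ex vivo with no overlap between settings in either tissue. The same held for 22.8% of all 22626 probes in shortened tissue and 20.3% in stretched tissue. The median difference of the 6 members was -2.05 in shortened and -2.38 in stretched tissue, and that of all genes was -0.01 and -0.02.

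The size of the shift depended on the scaling and the direction of the members did not. Without centring, the median probe moved by -0.38 in both tissues, and the members' medians were -2.51 in shortened and -2.83 in stretched tissue. With all 22 samples quantile normalized together they were -2.17 and -2.50. Of the probes called in shortened tissue 55.5% were higher ex vivo on the centred values, 23.8% on the deposited values and 48.7% after joint quantile normalization. In stretched tissue these shares were 55.3%, 23.3% and 49.5%. On deposited values 12607 of the 22626 probes were called lower and 3943 higher in shortened tissue. The counts in stretched tissue were 12260 lower and 3719 higher. All 6 members stayed called lower under each scaling.

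Further probes of the same genes gave differences of the same direction. A second probe of H2-Aa read -2.56 ± 0.17 in shortened and -2.79 ± 0.15 in stretched tissue. For H2-Ab1 the 2 further probes read -2.15 ± 0.21 and -2.31 ± 0.18 in shortened tissue and -2.53 ± 0.22 and -2.78 ± 0.21 in stretched tissue. The second probe of Ciita read -1.65 ± 0.18 and -1.46 ± 0.23 in shortened and stretched tissue. All of these passed the threshold (limma, highest adjusted p = 0.00013).

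Among class II genes outside the list of members, H2-Oa, which encodes a chain of the DM antagonist DO, was lower ex vivo by 1.19 ± 0.10 in shortened tissue (limma, adjusted p = 2.54e-07) and by 1.30 ± 0.12 in stretched tissue (limma, adjusted p = 9.85e-07). The 3 probes of H2-Ea disagreed. C57BL/6 mice carry an H2-Ea allele that yields no functional alpha chain. Its brightest probe was at 7.15 ± 0.16 in ex vivo stretched and 7.16 ± 0.19 in ex vivo shortened tissue, and at 7.48 ± 0.18 in in vivo stretched and 7.49 ± 0.20 in in vivo shortened tissue. Its differences of 0.13 ± 0.14 and 0.11 ± 0.13 did not pass the threshold (limma, adjusted p = 0.452 and 0.469), although on deposited values they were -0.34 and -0.33 and did. A second probe of H2-Ea was at 2.79 to 3.40 in ex vivo stretched and 2.95 to 3.10 in ex vivo shortened tissue, and at 3.62 to 4.10 in in vivo stretched and 3.61 to 3.87 in in vivo shortened tissue. These are deposited signals, which include the shift in sample medians between settings, and after centring the settings overlapped in both tissues. On centred values the probe was lower ex vivo by 0.27 ± 0.08 in shortened tissue (limma, adjusted p = 0.00958) and 0.38 ± 0.13 in stretched tissue (limma, adjusted p = 0.0189). The dimmest probe stayed between 2.61 and 3.03 in all 22 samples, so that after centring it read 0.33 ± 0.09 and 0.28 ± 0.07.

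The factors on which Ciita rides were called in both directions. Of 7 genes for RFX, CREB and NF-Y subunits, 2 were called higher and 2 lower in each tissue, with medians of 0.01 in shortened and -0.05 in stretched tissue. These shares are near those of all probes, of which 36.9% were called higher and 29.6% lower in shortened tissue and 35.1% and 28.4% in stretched tissue. On deposited values 1 was called higher and 4 lower in shortened tissue and 1 higher and 5 lower in stretched tissue, with medians of -0.45 and -0.50. Nfya, a subunit of NF-Y, rose by 0.98 ± 0.14 in shortened tissue (limma, adjusted p = 3.61e-05) and by 0.97 ± 0.12 in stretched tissue (limma, adjusted p = 1.18e-05). Nfyc, another NF-Y subunit, fell by 0.63 ± 0.09 and 0.45 ± 0.11, and Rfxank, an RFX subunit, fell by 0.45 ± 0.09 and 0.53 ± 0.11. Rfx5, the DNA-binding subunit of RFX, had differences of 0.01 ± 0.15 and 0.02 ± 0.14, which on deposited values were -0.45 and -0.42.

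On the route by which interferon gamma induces Ciita, 3 of 6 measured genes were called higher, against 36.9% of probes in shortened and 35.1% in stretched tissue, and 1 lower in each tissue, with medians of 0.47 and 0.50. On deposited values 2 were called higher and 2 lower in shortened tissue and 3 higher and 3 lower in stretched tissue, with medians of 0.01 and 0.06. Irf1, a transcription factor that binds a Ciita promoter, was at 10.60 ± 0.32 in ex vivo stretched and 11.06 ± 0.37 in ex vivo shortened tissue, and at 9.95 ± 0.24 in in vivo stretched and 9.97 ± 0.27 in in vivo shortened tissue. Irf1 was higher ex vivo by 1.55 ± 0.17 in shortened tissue (limma, adjusted p = 3.87e-06) and by 1.09 ± 0.16 in stretched tissue (limma, adjusted p = 5.76e-05). Jak2, a kinase of the interferon gamma receptor, was higher by 1.25 ± 0.11 and 1.39 ± 0.10. The receptor chain Ifngr1 was lower by 1.03 ± 0.07 and 0.79 ± 0.09, while the chain Ifngr2 was higher by 0.74 ± 0.12 and 0.97 ± 0.16, a rise that was 0.28 and not called in shortened tissue on deposited values. Ifng itself was dim, between 2.88 and 3.98 in all samples, with differences of 0.19 ± 0.13 and 0.01 ± 0.17 that did not pass the threshold (limma, adjusted p = 0.195 and 0.974). On deposited values Ifng was lower ex vivo in both tissues and was among the 3 genes called lower in stretched tissue.

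Genes of endosomal processing, which cut the invariant chain and the antigens, were also called in both directions. Of 9 genes, 3 were called higher and 3 lower in each tissue, near the shares of all probes given above, but on deposited values 1 was called higher and 5 lower in each tissue. Ctsz, a cathepsin, was higher by 1.07 ± 0.08 in shortened and 1.18 ± 0.09 in stretched tissue, whereas Ifi30, the thiol reductase that opens disulfide bonds of antigens, was lower by 1.14 ± 0.07 and 1.01 ± 0.15. Cst3, an inhibitor of cathepsins, was lower by 1.09 ± 0.07 and 0.96 ± 0.09, and Ctsh was lower by 0.82 ± 0.08 and 1.15 ± 0.18. Ctss, the cathepsin that removes the invariant chain in many antigen-presenting cells, read 0.60 ± 0.15 (limma, adjusted p = 0.00315) and 0.75 ± 0.18 (limma, adjusted p = 0.00283). On deposited values the differences of Ctss were 0.14 and 0.31 and did not pass the threshold. The list's median was 0.11 in shortened and 0.14 in stretched tissue, but -0.36 and -0.31 on deposited values.

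Costimulatory and checkpoint ligands, which antigen-presenting cells show beside class II, were higher ex vivo. In shortened tissue 5 of 6 were called higher and in stretched tissue 6 of 6, where 36.9% and 35.1% of probes were called higher, and 3 in each tissue on deposited values. The median was 1.24 in shortened and 1.23 in stretched tissue, but 0.77 and 0.79 on deposited values. Cd274, which encodes the checkpoint ligand PD-L1, was at 10.85 ± 0.31 in ex vivo stretched and 11.36 ± 0.32 in ex vivo shortened tissue, and at 8.52 ± 0.31 in in vivo stretched and 8.40 ± 0.25 in in vivo shortened tissue. Cd274 rose by 3.42 ± 0.17 in shortened tissue (limma, adjusted p = 2.42e-09) and by 2.77 ± 0.18 in stretched tissue (limma, adjusted p = 5.43e-08). Pdcd1lg2, the gene of PD-L2, rose by 1.83 ± 0.12 and 1.97 ± 0.13, and Cd86, a ligand of CD28, by 1.77 ± 0.11 and 1.73 ± 0.19.

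The class I pathway, which displays peptides from inside the cell, was higher ex vivo. All 10 measured genes were called higher in both tissues, where 36.9% of probes in shortened and 35.1% in stretched tissue were, with medians of 0.80 in shortened and 0.91 in stretched tissue. Tap1, a peptide transporter subunit, rose by 1.76 ± 0.12 in shortened tissue (limma, adjusted p = 6.64e-08) and by 1.49 ± 0.11 in stretched tissue (limma, adjusted p = 1.28e-07). Tapbp, which holds class I at that transporter, rose by 1.35 ± 0.08 and 1.43 ± 0.10, and B2m, the light chain of class I, by 0.64 ± 0.04 and 0.64 ± 0.05. On deposited values 7 genes in shortened and 6 in stretched tissue were called higher, with medians of 0.34 and 0.47, and the class I heavy chain gene H2-D1 read 0.02 and -0.05, a reversed direction in stretched tissue.

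**Figure D2:**
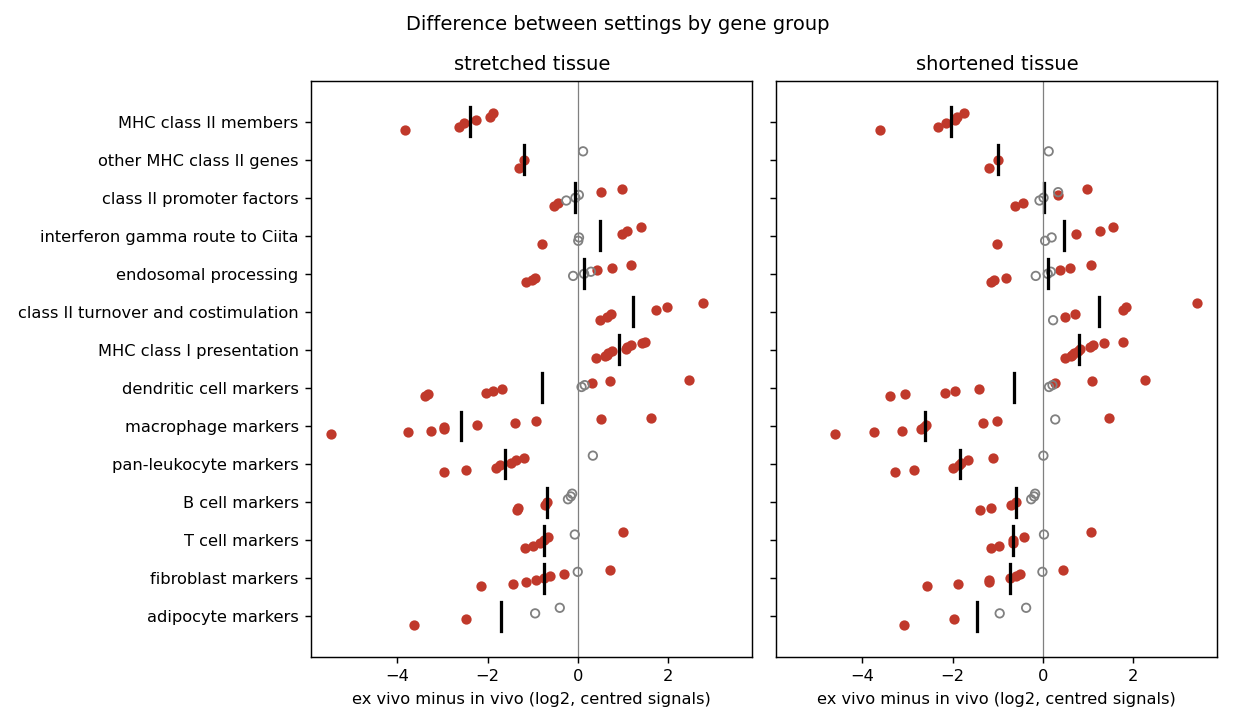
Difference ex vivo minus in vivo (log2, after subtracting each sample's median) for each measured gene of 14 lists, in stretched tissue (left) and shortened tissue (right); filled red points passed the threshold of 0.05, open grey points did not, and black bars are list medians. The 6 class II members lie between -3.83 and -1.76, while all 10 class I genes lie above 0.

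Markers of the cells that carry class II also differed between settings. In tissue of mixed cells, fewer cells of a type and less RNA per cell cannot be told apart. Macrophage markers were called lower for 8 of 10 genes in each tissue, where 29.6% of probes in shortened and 28.4% in stretched tissue were, with medians of -2.61 in shortened and -2.60 in stretched tissue, lower than the medians of the class II members. Cd163, a haemoglobin receptor of resident macrophages, differed by -4.61 ± 0.16 in shortened tissue (limma, adjusted p = 1.63e-10) and -5.46 ± 0.15 in stretched tissue (limma, adjusted p = 7.09e-11). Mrc1, the mannose receptor, differed by -3.74 ± 0.13 and -3.76 ± 0.16, and Adgre1, which encodes F4/80, by -2.59 ± 0.15 and -2.23 ± 0.32. Fcgr1, an Fc receptor named here after its values were seen, went against the list at 1.46 ± 0.19 and 1.62 ± 0.27. On centred values so did Cd68, a lysosomal protein of macrophages named for the same reason, at 0.27 ± 0.15 (limma, adjusted p = 0.136) and 0.52 ± 0.20 (limma, adjusted p = 0.0338). On deposited values 1 marker was higher and 9 were lower in shortened tissue, with Cd68 among the lower ones. In stretched tissue 2 were higher there but only 1 was called higher, and Cd68 lost its call. The mean signal of the 10 markers was 7.97 to 9.20 in ex vivo stretched and 8.52 to 9.32 in ex vivo shortened tissue, and 11.02 to 11.44 in in vivo stretched and 11.21 to 11.49 in in vivo shortened tissue.

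Of 10 dendritic cell markers 5 were called lower and 3 higher in each tissue, with medians of -0.64 in shortened and -0.80 in stretched tissue. Of all probes, 29.6% were called lower and 36.9% higher in shortened tissue, and 28.4% and 35.1% in stretched tissue. On deposited values 8 were called lower and 2 higher in shortened tissue and 7 lower and 1 higher in stretched tissue, with medians of -1.10 and -1.24. Itgax, which encodes CD11c, was at 5.03 ± 0.05 in ex vivo stretched and 5.02 ± 0.05 in ex vivo shortened tissue, and at 7.36 ± 0.13 in in vivo stretched and 7.42 ± 0.23 in in vivo shortened tissue. Itgax was lower by 1.94 ± 0.12 and 1.88 ± 0.10, Batf3, a factor of cross-presenting dendritic cells, by 2.16 ± 0.10 and 2.03 ± 0.13, and Clec10a, a lectin, by 3.38 ± 0.20 and 3.32 ± 0.19. Ccr7, the receptor that guides migrating dendritic cells to lymph nodes, was higher by 2.26 ± 0.18 in shortened tissue (limma, adjusted p = 2.03e-07) and by 2.46 ± 0.18 in stretched tissue (limma, adjusted p = 1.48e-07). The mean of the 10 dendritic cell markers was 6.17 to 6.54 in the ex vivo samples and 7.50 to 7.78 in the in vivo samples.

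Pan-leukocyte markers were called lower for 7 of 8 genes in each tissue, with medians of -1.83 in shortened and -1.61 in stretched tissue. Of all probes, 29.6% were called lower in shortened and 28.4% in stretched tissue. Ptprc, which encodes CD45, was lower by 1.99 ± 0.20 (limma, adjusted p = 1.95e-06) and 1.82 ± 0.23 (limma, adjusted p = 1.98e-05). B cell markers had a median of -0.60 and -0.67, with 4 of 7 called lower against these same shares, and Cd79a differed by -0.60 ± 0.10 and -0.74 ± 0.12. T cell markers had a median of -0.67 and -0.75, with 5 of 7 called lower against the same shares. Among them was Cd3e, a chain of the T cell receptor complex, at -0.67 ± 0.11 and -0.75 ± 0.11, while Cd8a was higher by 1.06 ± 0.10 and 0.99 ± 0.10. Fibroblast markers had a median of -0.73 and -0.75, and skeletal muscle markers of -1.69 and -1.43 with 1 and 0 of 10 called. On deposited values all 7 B cell markers were called lower in each tissue, with medians of -1.06 and -1.12, as were 6 of 7 T cell markers, with medians of -1.13 and -1.20, and 8 of 9 fibroblast markers, with medians of -1.19 and -1.20. On that scale 12607 of the 22626 probes were called lower in shortened and 12260 in stretched tissue. The B cell markers were also dim, with group means of their mean signal from 3.93 to 5.07. What these shifts in cell markers contribute to the class II differences was not tested.

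The second question, which the study's design poses within animals, was whether stretch changed these genes. No member was called in either setting. Ex vivo, the chains and H2-DMa had lower signals in the stretched piece of 3 of 4 animals. In vivo the mean differences of the 6 members, by the brightest probe of each gene, lay between -0.13 and -0.02.

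Ex vivo, stretched minus shortened differences of H2-Aa were -0.35, 0.26, -0.50 and -0.88 in animals 1 to 4. Those of H2-Ab1 were -0.28, 0.21, -0.48 and -0.99, and those of H2-Eb1 were -0.41, 0.36, -0.46 and -0.98. H2-DMa read -0.36, 0.19, -0.33 and -0.89. For each of these 4 genes animal 2 was the one with a higher signal in the stretched piece, and animal 4 had the deepest difference. Cd74 was split, at -0.31, 0.54, 0.02 and -0.85. Ciita read -0.24, 0.32, -0.06 and -0.06, but its signals were dim in both pieces, so little change could show.

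The mean ex vivo difference was -0.37 ± 0.17 for H2-Aa, -0.39 ± 0.18 for H2-Ab1, -0.37 ± 0.20 for H2-Eb1, -0.35 ± 0.18 for H2-DMa, -0.15 ± 0.21 for Cd74 and -0.01 ± 0.11 for Ciita (SE, n = 4 pairs). With limma and adjustment over all probes 0 of 6 passed the threshold (lowest adjusted p = 0.488), as did 0% of probes, and at an unadjusted p under 0.05 the count was also 0 of 6, where 5.85% of probes were lower. The 95% intervals ran from -0.78 to 0.04 for H2-Aa and from -0.82 to 0.05 for H2-Ab1, so that both no change and a fall of over 0.7 lay within them. No member was lower in every pair, which held for 9.32% of probes. Other probes of H2-Ab1 read -0.48 ± 0.18 and -0.53 ± 0.19 (limma, adjusted p = 0.415 and 0.405). Leaving out animal 4, whose stretched piece was rich in muscle and had the lowest H2-DMa signal, changed the direction of Cd74 to 0.08 and that of Ciita to 0.0050, and brought the other members nearer to 0, at -0.20 for H2-Aa, -0.18 for H2-Ab1 and -0.17 for H2-Eb1 and H2-DMa. Without animals 3 and 4, whose stretched pieces were both rich in muscle, H2-Aa read -0.044, H2-Ab1 -0.034, H2-Eb1 -0.026 and H2-DMa -0.089. Without animal 2 the values were -0.58 for H2-Aa, -0.59 for H2-Ab1, -0.62 for H2-Eb1 and -0.53 for H2-DMa. No member was called in any of these fits.

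The muscle content differed widely between the pieces of 2 of the 4 animals. No muscle marker passed adjustment. Their mean differed by -0.54, 0.16, 5.29 and 5.53 between the stretched and shortened pieces of ex vivo animals 1 to 4. Macrophage markers differed by -0.66, 0.28, 0.17 and -0.78 in these animals, dendritic cell markers by -0.13, 0.18, -0.12 and -0.17, and pan-leukocyte markers by -0.28, 0.78, 0.42 and -0.68. Each of these lists was higher in the stretched piece of animal 2 and lower in that of animals 1 and 4, as were the class II members. In animal 3 the macrophage and pan-leukocyte means were higher in the stretched piece, at 0.17 and 0.42, while the mean of the class II members was lower, at -0.30. The part of cell content in the class II differences was not tested.

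In vivo the pairs lay close together. The stretched minus shortened difference ranged over the 7 animals from -0.14 through a median of -0.05 to 0.14 for H2-Aa, and H2-Ab1 ranged from -0.19 through -0.02 to 0.11. For H2-Eb1 the range was -0.23 to 0.05, for Cd74 -0.15 to 0.03, for H2-DMa -0.37 to 0.09 and for Ciita -0.45 to 0.41. Mean differences were -0.04 ± 0.04 for H2-Aa, -0.04 ± 0.04 for H2-Ab1, -0.07 ± 0.05 for H2-Eb1, -0.05 ± 0.03 for Cd74, -0.13 ± 0.06 for H2-DMa and -0.02 ± 0.11 for Ciita (SE, n = 7 pairs). The second probe of Ciita read -0.21 (SD 0.26), lower in the stretched piece of 6 of 7 pairs, and was not called either, so the Ciita probes differed in size. In limma 0 of 6 were called, as 0% of probes were, and 0 of 6 had an unadjusted p under 0.05, against 11.4% of probes that were lower and 7.95% that were higher. No member was lower in every pair, which held for 3.68% of probes. The 95% intervals of H2-Aa, -0.12 to 0.04, and of Cd74, -0.12 to 0.02, leave room for only small changes of these bright probes in vivo. Dimmer probes of the chains spread more between pairs. They read -0.09 (SD 0.20) for H2-Aa and -0.12 (SD 0.26) and -0.07 (SD 0.28) for H2-Ab1, where the SD of the brightest probe was 0.09 and 0.10. H2-DMa came nearest to the threshold, with an interval of -0.27 to 0.0034 (limma, adjusted p = 0.267).

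No marker of another cell type passed adjustment in these pairs. Of all genes, 6844 of 12393 were lower in stretched tissue, and 11.4% of probes were lower at an unadjusted p under 0.05. All 10 macrophage markers were lower in stretched tissue, 9 of them at an unadjusted p under 0.05, with a median of -0.16. All 8 pan-leukocyte markers were lower, 6 of them at an unadjusted p under 0.05, with a median of -0.20. No marker of these 2 lists had an adjusted p under 0.05 in limma. All 9 fibroblast markers were lower too, 6 of them at an unadjusted p under 0.05, with a median of -0.12. Dendritic cell markers, 5 higher and 5 lower, had a median of -0.02, B cell and T cell markers, 5 of 7 higher in each list, had medians of 0.05, and all genes had one of -0.01. Muscle markers had a median of 2.23, with 9 of 10 at an unadjusted p under 0.05 and higher, against 7.95% of probes.

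**Figure D3:**
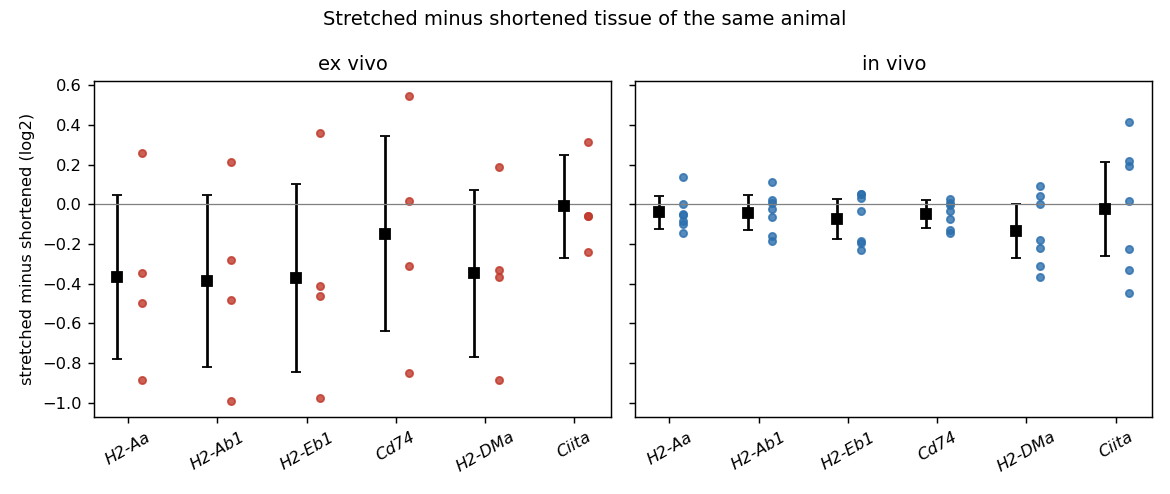
Stretched minus shortened signal (log2) of the 6 class II genes ex vivo (left, 4 animals) and in vivo (right, 7 animals); coloured points are animals, black squares the fitted mean and bars its 95% interval. All intervals include 0, and those of the 3 chain genes are wider ex vivo than in vivo.

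The difference between the stretch effects, ex vivo minus in vivo, was -0.33 ± 0.15 for H2-Aa, -0.34 ± 0.16 for H2-Ab1, -0.30 ± 0.18 for H2-Eb1, -0.21 ± 0.17 for H2-DMa, -0.10 ± 0.18 for Cd74 and 0.01 ± 0.17 for Ciita (SE, 11 animals). In limma none of the 6 was called (lowest adjusted p = 0.336), while 40 probes were, or 0.177% of those tested. For H2-Aa the 95% interval ran from -0.66 to 0.0062.

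Within the in vivo group, class II signals also differed between animals 1 to 3 and animals 4 to 7, which the Gapdh controls separate. Ciita ran from 6.60 to 7.23 in animals 1 to 3 and from 5.77 to 6.36 in animals 4 to 7, with no overlap. H2-Ab1 ran from 12.86 to 13.13 and from 12.69 to 12.93, but its second probe, at 11.82 to 12.27 and 10.94 to 11.51, did not overlap. H2-DMa ran from 10.56 to 10.93 and from 10.26 to 10.65, and Cd74 from 13.42 to 13.79 and from 13.43 to 13.60. These animal sets were formed from a measure of RNA quality and have no labelled difference, so no test was made. The Gapdh difference of in vivo animals 1 to 3 was like that of most ex vivo samples, but that of the beta-actin control was not. It was 0.333 to 0.497 in these animals and 0.495 to 1.32 ex vivo. Against in vivo animals 1 to 3 alone, the ex vivo difference of Ciita was -2.42 in shortened and -2.31 in stretched tissue. Against animals 4 to 7 alone it was -1.58 and -1.67. All 6 members stayed called lower against either set (highest adjusted p = 0.000786, Cd74 in stretched tissue against animals 1 to 3).

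**Figure D4:**
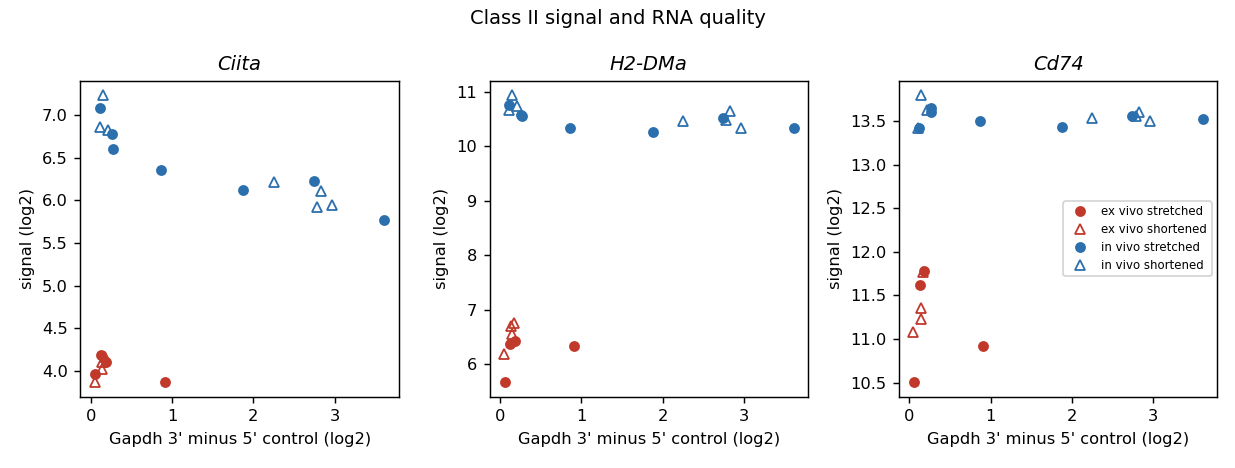
Deposited log2 signal of Ciita, H2-DMa and Cd74 against the 3′ minus 5′ difference of the Gapdh control probes (log2) in all 22 samples, where filled circles are stretched, open triangles shortened, red ex vivo and blue in vivo. In vivo samples with a difference above 0.8 have Ciita signals of 5.77 to 6.36 and those below 0.3 have 6.60 to 7.23, while the Cd74 ranges of these samples overlap.

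The members varied together from sample to sample within groups. As a description without a test, deviations from the group means correlated between pairs of the 3 chain genes with r of 0.664 to 0.849 over the 14 in vivo samples and 0.958 to 0.995 over the 8 ex vivo samples, which share animals in pairs. Cd74 followed H2-Aa with r of 0.160 in vivo and 0.806 ex vivo, H2-Ab1 with 0.674 and 0.903, and H2-Eb1 with 0.759 and 0.807. In vivo, every member had a higher mean in animals 1 to 3 than in animals 4 to 7, for Ciita 6.90 against 6.08. The in vivo r includes this split by RNA quality, and its part was not tested. Against the mean deviation of the chain genes and Cd74, the genes outside the pathway with the highest r over 22 samples were Csf3r and Cd52 at 0.866, Fcgr2b at 0.855, Fcgr3 at 0.843, Slamf8 at 0.812, Cd302 at 0.807, Srgn at 0.802, Rhoh at 0.794, Csf2ra at 0.787 and Tifa at 0.786. H2-DMa had an r of 0.788 and Ciita one of 0.405, which put Ciita at rank 740 of 12393 genes, although r for Ciita was 0.768 over the in vivo and 0.766 over the ex vivo samples alone. For Ptprc r was 0.527, for Adgre1 0.574 and for Itgax 0.157. Over the in vivo samples alone Fcgr2b, Fcgr3 and Cd302 had r of 0.096, 0.175 and 0.021, so their likeness rests on the 8 ex vivo samples, whereas Cd52 and Slamf8 had 0.891 and 0.889 in vivo.

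These most alike genes did not share one difference between settings. Cd52, a surface glycoprotein of leukocytes, was lower ex vivo by 1.10 ± 0.16 in shortened and 1.20 ± 0.16 in stretched tissue, and the Fc receptor gene Fcgr3 by 1.40 ± 0.17 and 1.38 ± 0.17. Slamf8, a receptor of myeloid cells, was higher ex vivo by 3.28 ± 0.13 in shortened tissue (limma, adjusted p = 4.53e-10) and by 3.35 ± 0.14 in stretched tissue (limma, adjusted p = 8.88e-10). Csf3r, the receptor for granulocyte colony-stimulating factor, was higher by 0.83 ± 0.19 and 0.89 ± 0.24.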

How the data were processed

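RNA of 22 samples was extracted with Tri-Reagent and measured on arrays as biotin-labelled cRNA, per the labels' protocols. Per the submitters' processing notes the tools were RMA and affy, with versions not given in the sources used here, and the values the authors deposited are on the log2 scale. Of 22690 probes, 64 controls were left out. Probes with 1 symbol (20380) named 12393 genes, each by its probe with the highest mean, while 691 probes had several symbols and 1555 none. No 2 samples held identical values.

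Comparisons were run in R 4.3.3 with limma 3.58.1, using lmFit and then eBayes with its trend option. P-values were adjusted by Benjamini-Hochberg over 22626 probes, at a threshold of 0.05, and the fits were checked on simulated data. Stretch comparisons had the animal as a block, as the series design compares pieces within animals. Deviations from group means of 1 number's samples correlated with r of 0.385 to 0.867 in vivo and 0.109 to 0.284 ex vivo. Setting comparisons used values minus each sample's median, with no block, and the stretched ones hold other pieces of the same animals.

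The members, 16 gene lists (130 genes, 118 measured) and tests were chosen with earlier results of these data known. Named genes are all members, 2 to 4 genes with the smallest p of a list, fixed examples (Ptprc, Itgax, Adgre1, Cd79a, Cd3e, Ifng, Irf1, Rfx5, Ctss, B2m and H2-Ea, with 1 more not reported here) and the 10 genes most alike. Alternatives changed the normalization, trend, filter on dim probes, probe, array weights, block, covariates (muscle content, Gapdh difference) and animals, those by RNA quality set being added after seeing the data.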

Additional observations from a re-analysis of the deposited data

Results flagged for a closer look

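In each group of each member the highest and lowest samples were compared with their nearest neighbour, relative to the range of the group (Dixon's criterion). Of 24 such groups, 2 held a sample that lay far from the others, and chance alone flags about 1 in 20. H2-Ab1 in in vivo shortened tissue of animal 3 had a log2 signal of 13.13, with the next sample at 12.91. H2-DMa in ex vivo stretched tissue of animal 4 had a log2 signal of 5.67, with the next sample at 6.33, and this piece also had a muscle marker mean of 11.8, the highest of the ex vivo samples.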

How the results depend on the processing

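All 122 alternative values of the 6 members in shortened tissue and all 122 in stretched tissue kept the direction and the call of the ex vivo minus in vivo difference, over ranges of -4.06 to -1.58 and -4.27 to -1.46, with highest adjusted p of 5.34e-05 and 0.000786. With probes of a mean of at least 6 only, 9451 probes were called in stretched tissue, against 14372. Without the replicate block, 0 members were called in the stretch comparisons in vivo and ex vivo and in their difference, and probes called in that difference numbered 3, against 40. Stretch differences near 0 changed sign under some settings, with no member called under any of them. In vivo, H2-Aa read 0.020 and H2-Ab1 0.0029 with muscle content as a covariate, H2-Aa 0.0028 in animals 1 to 3 only, and Ciita 0.073 in animals 4 to 7 only and -0.096 to 0.047 with an animal left out. Ex vivo, Ciita read 0.053 with the Gapdh covariate, 0.018 with the muscle covariate, 0.037 without the muscle-rich pairs (animals 5 and 6 in vivo, 3 and 4 ex vivo), 0.011 with array weights, and -0.12 to 0.066 with an animal left out. Cd74 read 0.082 ex vivo with the muscle covariate, 0.12 without the muscle-rich pairs, and -0.38 to 0.085 with an animal left out. With all samples in 1 fit 661 probes were called ex vivo, against 0. In the difference of the stretch effects, Ciita read -0.0043 on centred values and -0.096 to 0.089 with an animal left out, where Cd74 read -0.33 to 0.13. Without the muscle-rich pairs H2-Eb1 read 0.044, H2-DMa 0.064 and Cd74 0.17. Its 40 called probes became 5 after quantile normalization, 8 with the muscle covariate, 9 without the muscle-rich pairs, 4 without a trend, 330 with array weights, 74 with probes of a mean of at least 6, and 0 to 663 when an animal was left out (331 without ex vivo animal 4, 663 without ex vivo animal 1). Apart from settings that use fewer probes or animals, the cause of these changes was not tested. For H2-Ea, Rfx5, Ifng, Ifngr2, Ctss, H2-D1 and Cd68 the direction or call between settings depended on centring, as stated beside their values. This list of named genes need not be complete.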
